A study of Homo sapiens with 4 samples.

Results

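The miR-200 family was followed in small RNA libraries from HEK293T cells, a human embryonic kidney line that carries the SV40 large T antigen. Its 9 mature miRNAs were taken by name from a count table of 2656 miRNAs: hsa-miR-200b-3p, hsa-miR-200b-5p, hsa-miR-200a-3p, hsa-miR-200a-5p and hsa-miR-429 from a cluster on chromosome 1, and hsa-miR-200c-3p, hsa-miR-200c-5p, hsa-miR-141-3p and hsa-miR-141-5p from a cluster on chromosome 12. Every line had a landing pad, which is a place in the genome engineered to receive a transgene. In the PGK group the pad held the PGK promoter, named after the phosphoglycerate kinase gene, and in the CAG group the CAG promoter, a synthetic promoter with a viral enhancer (cytomegalovirus) and part of the chicken beta-actin gene. There were 2 libraries per group, and the series asked which miRNAs differ between the groups. The lines were monoclonal, neither the number of clones per group nor the origin of the replicates is stated in the labels, and no library of cells without a pad was among the samples. Promoter and clone therefore cannot be told apart, and p-values measure only the spread between these 4 libraries, which may be technical.

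The members of the miR-200 family are known from epithelial cells, where they pair with the messenger RNAs of ZEB1 and ZEB2, repressors of the adhesion gene CDH1. ZEB1 and ZEB2 in turn repress the transcription of the miR-200 clusters, so that each side holds the other down, and loss of the miRNAs accompanies the change from an epithelial to a mesenchymal state. A miRNA finds its targets mainly through its seed, bases 2 to 8 counted from the 5′ end. Each hairpin gives a 3p and a 5p arm, and in this family the 3p arm is the usual guide strand.

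The 3p members carry either of 2 seeds that differ by a single base. Neither seed belongs to a single cluster, which is why the sequences are shown: each cluster makes both. RefSeq (GRCh38.p14) gave mature sequences for 8 of the 9 members, here with the seed in capitals. The members with the seed AAUACUG were:
hsa-miR-200b-3p: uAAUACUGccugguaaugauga
hsa-miR-429: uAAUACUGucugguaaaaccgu
hsa-miR-200c-3p: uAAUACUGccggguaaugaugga
The members with the seed AACACUG were:
hsa-miR-200a-3p: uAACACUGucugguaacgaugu
hsa-miR-141-3p: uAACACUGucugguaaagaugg
The 5p arms have other seeds, shared by miR-200a-5p and miR-200b-5p:
hsa-miR-200a-5p: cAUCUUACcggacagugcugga
hsa-miR-200b-5p: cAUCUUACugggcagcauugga
hsa-miR-200c-5p: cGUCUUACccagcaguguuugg

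Counted from the 5′ end, miR-200b-3p and miR-200c-3p differ over their shared 22 bases by U11G and A22G, and miR-200c-3p is 1 base longer. Between miR-200a-3p and miR-141-3p the substitutions are C17A and U22G. Each of these pairs has a member on either chromosome, so the split of reads between the loci rests on few bases. The labels do not state how the authors assigned reads that fit 2 entries. The counts show it only for identical entries of another family. miR-199a-3p and miR-199b-3p have the same mature sequence, made from 2 hairpins and 1 hairpin. Their reads stood in ratios of 2 to 2.02 in all 4 libraries. That split does not show how reads were assigned between entries that differ by a few bases.

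In GENCODE release 29 (GRCh38) MIR200B (1167104 to 1167198), MIR200A (1167863 to 1167952) and MIR429 (1169005 to 1169087) lie on the plus strand of chromosome 1. They overlap no other annotated gene and end 4796 bases before TTLL10. MIR200C (6963699 to 6963766) and MIR141 (6964097 to 6964191) lie on the plus strand of chromosome 12, 330 bases apart. Both sit in an intron of the long non-coding RNA gene MIR200CHG, between PTPN6 and PHB2. The deposited tables hold no coordinates, so positions were looked up by name.

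The libraries held 7927615 and 7331437 reads (PGK replicates 1 and 2) and 13780279 and 2845945 reads (CAG replicates 1 and 2), counted on miRNAs. The 9 members took 48.0 to 68.1 CPM of unscaled reads (CPM, counts per 1000000 reads of the library), so they were a minor part of the miRNA pool. All levels below also carry TMM factors, with which 1 read equals 0.0777 CPM in CAG replicate 1, the deepest, and 0.324 CPM in CAG replicate 2, the shallowest. Raw reads are therefore given before scaled levels.

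The 2 clusters moved in opposite directions. In CAG cells the chromosome 12 cluster was 2.04-fold higher than in PGK cells (log2 fold change 1.03, SE 0.21, n = 2 per group; edgeR quasi-likelihood adjusted p = 0.00895), and the chromosome 1 cluster fell by 1.64 on the log2 scale (SE 0.28; edgeR adjusted p = 0.00276). These tests used the summed reads of each cluster in place of the single members, and in that table of 772 features 8.16% were called higher and 6.22% lower at an adjusted p under 0.05. Most reads of each cluster came from a single 3p miRNA, miR-200c-3p on chromosome 12 and miR-200b-3p on chromosome 1. On chromosome 1 miR-200a-3p had a log2 fold change of −1.74 as well (SE 0.60), but was not called (edgeR adjusted p = 0.0792). Both cluster calls were lost without PGK replicate 1 (edgeR adjusted p = 0.174 for chromosome 12 and 0.0851 for chromosome 1) and without PGK replicate 2 (0.200 and 0.0955), with log2 fold changes of 1.01 and −1.55, then 1.01 and −1.74. In a bulk library fewer cells with a miRNA and less of it per cell cannot be told apart.

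**Figure D1:**
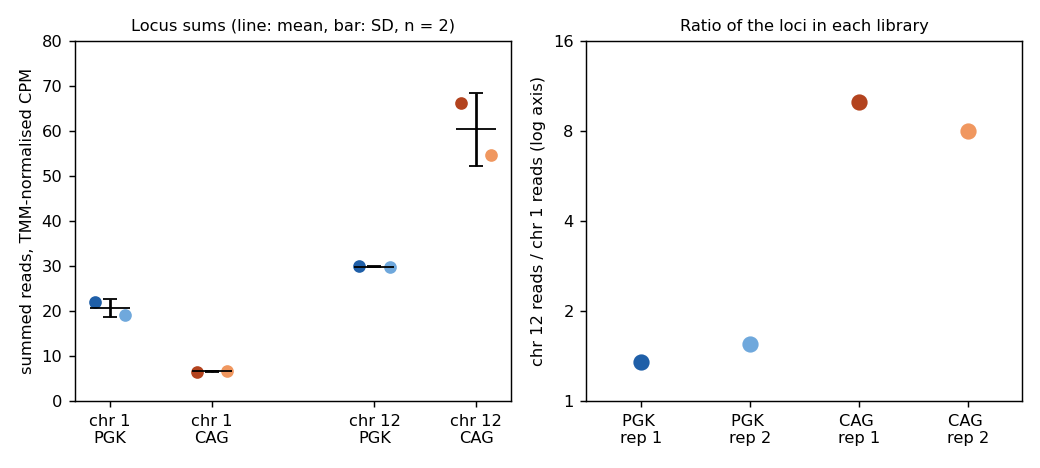
Left, summed reads of each cluster as TMM-normalised CPM (linear axis from 0; points are libraries, lines are means, bars are SD, n = 2); right, the ratio of chromosome 12 to chromosome 1 reads in each library on a log axis. The CAG libraries lie below the PGK libraries for chromosome 1 and above them for chromosome 12, and their ratios of 10.0 and 8.05 lie above the PGK ratios of 1.36 and 1.55.

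On chromosome 12 nearly all reads were miR-200c-3p, the guide strand of MIR200C. Its reads numbered 238 and 213 for PGK replicates 1 and 2, against 852 and 168 for CAG replicates 1 and 2. Scaled for depth these were 29.8 and 29.7 CPM in PGK cells and 66.2 and 54.5 CPM in CAG cells. The groups did not overlap, the PGK libraries were nearly equal, and the lower raw count of CAG replicate 2 went with its smaller total. The mean rose from 29.7 ± 0.0578 to 60.3 ± 8.28 CPM (SD, n = 2), 2.05-fold (log2 fold change 1.03, SE 0.21; edgeR adjusted p = 0.00887). The PGK SD was smaller than the level of 1 read (0.125 and 0.139 CPM in PGK replicates 1 and 2). It is therefore no measure of how closely such counts repeat. Pooled over each group's libraries the ratio was 2.15 (95% exact binomial interval 1.92 to 2.41). That interval, like the others given here, covers counting error only, because it treats reads as independent and leaves out the spread between libraries. PCR copies of a molecule may have been counted as separate reads, so even the counting error may be larger. Ranked by reads, miR-200c-3p stood at 317 and 313 in PGK replicates 1 and 2, against 251 and 271 in CAG replicates 1 and 2.

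Its cluster partner miR-141, which also targets the ZEB messages, was close to absent. miR-141-3p had 1 read in each PGK library, 0 in CAG replicate 1 and 1 in CAG replicate 2. miR-141-5p had 2 reads in CAG replicate 1 and 0 in the others, and miR-200c-5p, the passenger strand of MIR200C, had 1 read in PGK replicate 1 and 0 elsewhere. At 3 reads or fewer in each group no change of these 3 members was detectable, and no fold is given. Both arms of miR-141 together made up 5 of 1477 reads of the cluster, 0.339% (95% exact binomial interval 0.110 to 0.788%). The share was 0.441% in PGK cells and 0.293% in CAG cells, with overlapping intervals (0.0534 to 1.58% and 0.0605 to 0.855%). Adapter ligation favours some small RNAs over others, so shares between different miRNAs are less certain than changes of the same miRNA between libraries.

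On chromosome 1 the leading member was miR-200b-3p, the guide strand of MIR200B. Its reads numbered 154 and 108 for PGK replicates 1 and 2, against 66 and 13 for CAG replicates 1 and 2, or 19.3, 15.1, 5.13 and 4.21 CPM in the same order. Both CAG libraries lay below both PGK libraries, in raw reads as in scaled levels, although CAG replicate 1 was the deepest library. The mean fell from 17.2 ± 2.98 to 4.67 ± 0.645 CPM (SD, n = 2). On the log2 scale it fell by 1.82 (SE 0.30; edgeR adjusted p = 0.00257), and PGK cells had 3.49 times the pooled level of CAG cells (95% exact binomial interval 2.71 to 4.55). Its rank by reads went from 363 and 382 in PGK replicates 1 and 2 to 526 and 557 in CAG replicates 1 and 2. The passenger strand miR-200b-5p had 2 reads in PGK replicate 1 and 0 elsewhere, so no change of it was detectable.

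miR-200a-3p, the guide strand of the next hairpin, had 16 and 13 reads for PGK replicates 1 and 2, against 8 and 1 for CAG replicates 1 and 2. Its levels of 2.002 and 1.81 CPM in PGK cells lay above those of 0.621 and 0.324 CPM in CAG cells, without overlap. The log2 fold change was −1.74 (SE 0.60), which did not pass the test (edgeR adjusted p = 0.0792). The pooled level in PGK cells was 3.39 times that in CAG cells (95% exact binomial interval 1.56 to 8.15). Set against its neighbour in each library, miR-200a-3p had 10.4% and 12.04% as many reads as miR-200b-3p in PGK replicates 1 and 2, against 12.1% and 7.69% in CAG replicates 1 and 2. The last value rests on 1 read.

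The other members of the chromosome 1 cluster were too low for the test and did not separate the groups. miR-200a-5p, the partner strand of miR-200a-3p, had 4 and 5 reads in PGK and 4 and 5 reads in CAG replicates 1 and 2. Its pooled ratio of CAG to PGK was 0.950, with a 95% exact binomial interval of 0.334 to 2.70. That interval holds no change, but neither the pooled ratio of miR-200a-3p, 0.295, nor that of miR-200b-3p, 0.286. The interval of miR-200a-3p (0.123 to 0.640) overlaps it. The level of miR-200a-5p was lowest in CAG replicate 1 (0.311 CPM) and highest in CAG replicate 2 (1.62 CPM). miR-429, which shares the seed of miR-200b-3p, had 1 and 12 reads in PGK and 7 and 2 reads in CAG replicates 1 and 2. The PGK replicates of miR-429, at 0.125 and 1.67 CPM, lay on either side of the CAG replicates at 0.544 and 0.648 CPM. Its pooled ratio of 0.658 had an interval of 0.248 to 1.66, which holds both no change and the pooled ratio of miR-200b-3p, 0.286 (0.220 to 0.370).

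**Figure D2:**
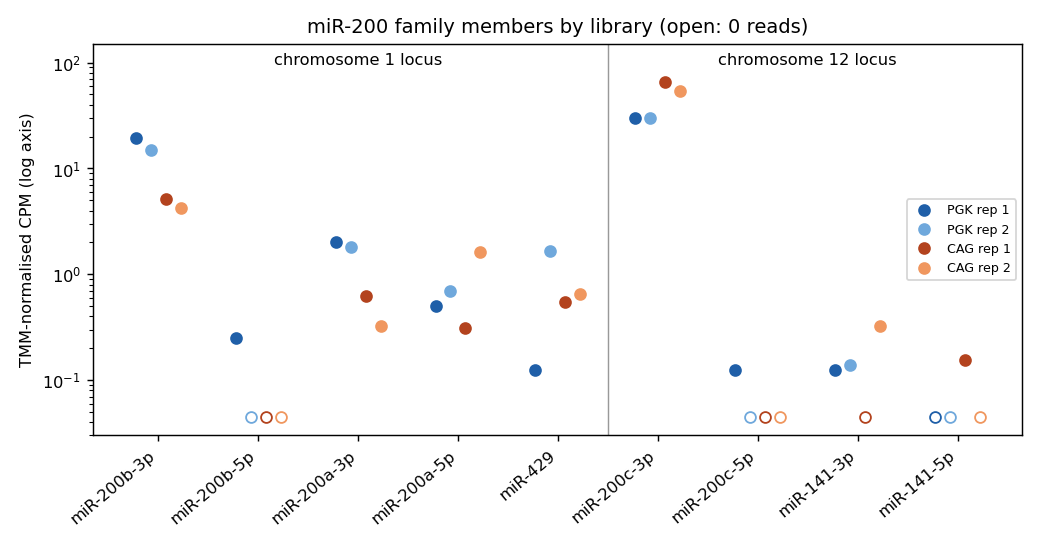
Level of each member in each library as TMM-normalised CPM on a log axis, with open circles at the bottom for 0 reads; colours are the 4 libraries. miR-200b-3p and miR-200a-3p are lower and miR-200c-3p is higher in both CAG libraries, while the members at or under 2 CPM other than miR-200a-3p overlap or rest on 3 reads or fewer per group.

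Of the 9 members, 3 passed the low-count filter, namely miR-200a-3p, miR-200b-3p and miR-200c-3p. Over all 773 miRNAs tested 8.15% were called higher and 6.08% lower in CAG cells. Among the members 1 was called higher and 1 lower. Both calls were lost without PGK replicate 1 (edgeR adjusted p = 0.153 for miR-200c-3p and 0.0764 for miR-200b-3p) and without PGK replicate 2 (0.197 and 0.0729). All tested miRNAs together had a median of −0.0042 on this log2 scale.

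**Figure D3:**
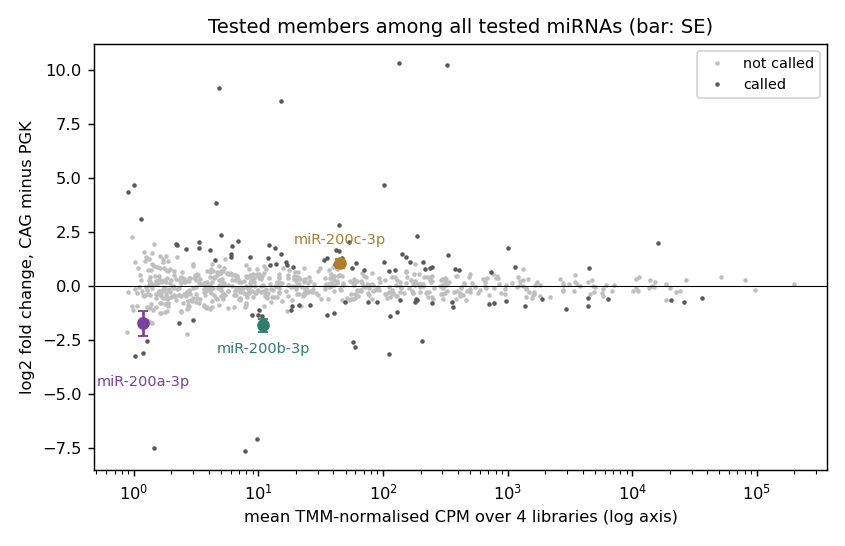
Log2 fold change (CAG minus PGK) against mean TMM-normalised CPM (log axis) for the 773 tested miRNAs, light grey where not called and dark grey where called, with the 3 tested members in colour (bars are SE). miR-200c-3p lies at 1.03, miR-200b-3p at −1.82 and miR-200a-3p at −1.74.

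Because depth and scaling cancel within a library, the clusters were also compared with each other. Chromosome 12 had 240 reads and chromosome 1 had 177 in PGK replicate 1, a ratio of 1.36. The reads were 214 and 138 in PGK replicate 2 (1.55), 854 and 85 in CAG replicate 1 (10.0) and 169 and 21 in CAG replicate 2 (8.05). Both CAG ratios were above both PGK ratios. The mean log2 ratio was 0.54 ± 0.14 in PGK and 3.17 ± 0.23 in CAG cells (SD, n = 2), a difference of 2.63 or 6.20-fold (two-sided exact permutation p = 0.333, the smallest that 2 libraries against 2 can give). On reads pooled by group the odds ratio was 6.69 (95% interval from Fisher's exact test 5.20 to 8.65).

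Counted by seed, the member that rose and the member that fell stand together. Of the reads of the 3 miRNAs with the seed AAUACUG, miR-200c-3p supplied 60.6% in PGK replicate 1 and 64.0% in PGK replicate 2. In CAG replicates 1 and 2 it supplied 92.1% and 91.8%. The exact 95% binomial intervals of the PGK libraries (55.5 to 65.4% and 58.6 to 69.1%) lay below those of the CAG libraries (90.2 to 93.8% and 86.8 to 95.3%). The deposited family table held this seed at 392 and 333 reads in PGK and 925 and 183 in CAG replicates 1 and 2, within 1 read of the sum of its 3 members in each library. That is 49.6, 47.1, 71.7 and 58.0 CPM, with the CAG libraries above the PGK libraries. The family's log2 fold change was 0.44 (SE 0.20), which did not pass the test (edgeR adjusted p = 0.217, unadjusted p = 0.0638).

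For the other seed, AACACUG, nearly all reads were miR-200a-3p, since miR-141-3p had 3 reads in all. The family table held 17 and 14 reads for PGK replicates 1 and 2, against 8 and 2 for CAG replicates 1 and 2, equal to the sum of miR-200a-3p and miR-141-3p. Its log2 fold change was −1.71 (SE 0.53), which did not pass the test (edgeR adjusted p = 0.0760). Among all 642 tested seeds of that table, 5.76% were called higher and 4.67% lower, and neither seed of the 3p members was among them. These rows hold the same reads as the single members and are no independent evidence. Of all 3p reads of the family, the seed AACACUG made up 4.10% in PGK cells (95% exact binomial interval 2.80 to 5.76%) and 0.894% in CAG cells (0.430 to 1.64%).

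**Figure D4:**
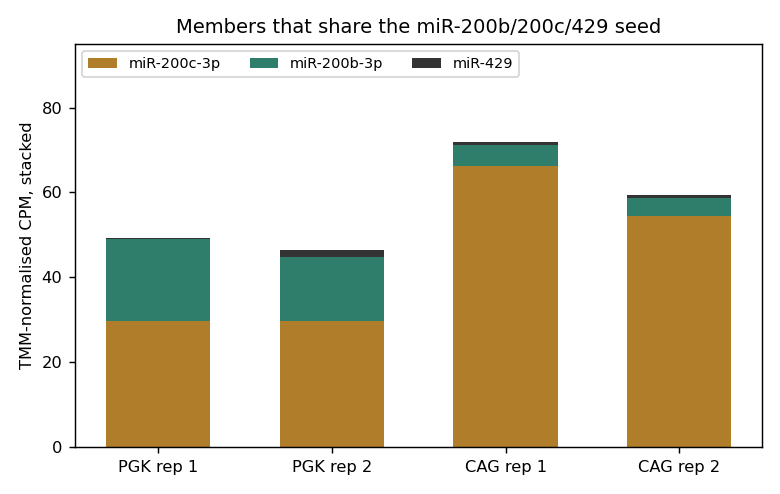
Stacked bars (linear axis from 0) of the TMM-normalised CPM of the 3 members with the seed AAUACUG in each library. The miR-200c-3p part is larger and the miR-200b-3p part is smaller in both CAG libraries, and miR-200c-3p holds 60.6% and 64.0% of reads in PGK and 92.1% and 91.8% in CAG replicates 1 and 2.

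Other miRNAs of the surrounding chromosome were read from the same test. Within 10 Mb of the chromosome 1 cluster the table held 18 other miRNAs. Of these 6 were tested, with 0 called higher and 1 called lower, against 8.15% and 6.08% of all 773 miRNAs tested. The called miRNA was miR-34a-5p, whose gene is a target of p53. It stood at 353 and 349 CPM in PGK and 64.1 and 52.5 CPM in CAG replicates 1 and 2. It fell by 2.57 on the log2 scale (SE 0.20; edgeR adjusted p = 6.55e-06). All 6 tested neighbours had log2 fold changes below 0, with a median of −1.02. Among them miR-34a-3p, at −0.97 and not called (edgeR adjusted p = 0.273), comes from the same hairpin as miR-34a-5p, 7.98 Mb from the cluster. The 6 therefore do not stand for 6 separate loci. In the rest of chromosome 1, 26 of 55 tested miRNAs were below 0, with 3 called higher, 1 called lower and a median of 0.03. Within 10 Mb of the chromosome 12 cluster the table held 4 other miRNAs, all with 0 reads in every library, so none was tested. The part of the surrounding region in the change of either cluster was not tested.

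**Figure D5:**
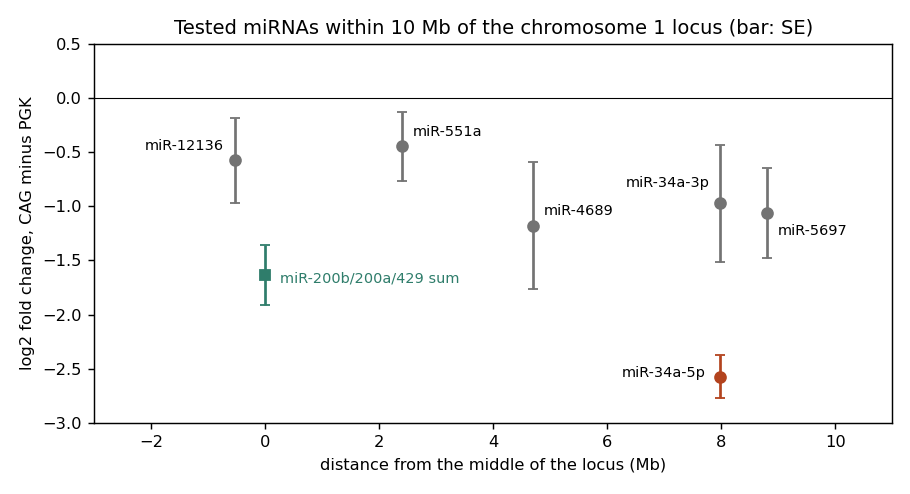
Log2 fold change (CAG minus PGK, bars are SE) of the 6 tested miRNAs within 10 Mb of the chromosome 1 cluster and of the cluster's summed reads, against distance from its middle in Mb. All points lie below 0, and miR-34a-5p and miR-34a-3p are arms of the same hairpin. The cluster sum at −1.64 and miR-34a-5p at −2.57 were called.

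Epithelial miRNAs outside the family were either called lower in CAG cells or not called. Of 22 listed miRNAs 13 were tested, with 0 called higher and 4 called lower, against 8.15% and 6.08% of all 773 miRNAs tested, and a median log2 fold change of −0.07 (DESeq2 and limma-voom also called 0 higher, and 0 higher members had an unadjusted edgeR p under 0.05). The most abundant were miR-183-5p and miR-182-5p of the sensory organ cluster, at mean levels of 5822 and 5014 CPM, with log2 fold changes of −0.17 and −0.07 that did not pass the test. miR-192-5p, abundant in kidney and gut, fell by 0.96 (edgeR adjusted p = 0.00303). Its partners from the same clusters, miR-194-5p by 0.98 and miR-194-3p by 0.92, fell as well (edgeR adjusted p = 0.00513 and 0.0368). The 4 calls therefore do not stand for 4 separate loci. miR-215-5p, which is clustered with another copy of the miR-194 hairpin, stood at 0.03 (SE 0.18; edgeR adjusted p = 0.923). It was among the 6 tested members with a log2 fold change above 0, as were miR-31-5p at 0.06 and miR-96-5p at 0.07, and none of the 6 passed the test. The names of these 3 were chosen once their values were known. miR-203a-3p, a miRNA of stratified epithelium, fell by 1.34 (edgeR adjusted p = 0.030), from 13.6 and 13.0 CPM in PGK to 6.45 and 2.27 CPM in CAG replicates 1 and 2. All 4 calls were lost without PGK replicate 1 and without PGK replicate 2, with adjusted p-values of up to 0.256. That of miR-194-3p was also lost with the replicate block (edgeR adjusted p = 0.0701), without the low-count filter (0.0527) and without CAG replicate 1. At the threshold of 0.01 the calls of miR-194-3p and miR-203a-3p were lost too. miR-205-5p, another marker of stratified epithelium, was looked at after its values were seen. It had 0 reads in both PGK libraries and 8 and 3 in CAG replicates 1 and 2, and the lower end of the 95% exact binomial interval of its pooled ratio of CAG to PGK was 2.38.

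Markers of other cells were given for comparison. In the mesenchymal list 5 of 10 miRNAs were tested, and 2 were called higher and 0 lower, against 8.15% and 6.08% of all miRNAs tested, with a median log2 fold change of 0.83 (DESeq2, limma-voom and an unadjusted edgeR p under 0.05 also gave 0 lower). miR-199b-5p rose from 23.3 and 17.4 CPM in PGK to 69.6 and 59.0 CPM in CAG replicates 1 and 2, 3.18-fold (edgeR adjusted p = 0.00088). miR-143-3p rose 2.50-fold (edgeR adjusted p = 0.0214), and miR-199a-3p was at 0.83 and not called (edgeR adjusted p = 0.0659). miR-199b-3p, which has the same mature sequence, was at 0.80 and not called (edgeR adjusted p = 0.104). Reads were split between these 2 entries, so they are not separate measurements, and the list's median is the value of miR-199a-3p. Named after their values were seen, miR-199a-5p was at −0.15 (edgeR adjusted p = 0.814), and miR-145-5p had 2 and 3 reads in PGK and 1 and 0 in CAG replicates 1 and 2. The call of miR-199b-5p was lost without PGK replicate 2. That of miR-143-3p was lost with the replicate block (edgeR adjusted p = 0.0538), without CAG replicate 1 or either PGK library, and at the threshold of 0.01. The summed level of the list was 62.2 and 67.5 CPM in PGK and 137 and 147 CPM in CAG replicates 1 and 2, and of its 10 miRNAs miR-214-3p and the passenger strand miR-143-5p were at 0 in every library. The 6 blood-cell miRNAs summed to 0.932 to 2.27 CPM per library, with miR-223-3p at 0, and none was tested. The part of these markers in the changes of the miR-200 clusters was not tested.

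The patterns most like those of the leading members were sought among 362 other tested miRNAs whose mean reached 20 CPM, by the Euclidean distance of log2 CPM, centred on each miRNA's mean, over the 4 libraries. Nearest to miR-200c-3p were miR-99a-5p at a distance of 0.220, miR-504-5p at 0.255 and miR-129-5p at 0.262, with log2 fold changes of 0.83, 1.10 and 0.79. Nearest to miR-200b-3p were miR-1287-5p at 0.618, miR-4326 at 0.681 and miR-9-3p at 0.736, with −1.33, −1.22 and −1.39. The distances were larger for miR-200b-3p than for miR-200c-3p, and its 3 nearest miRNAs all had smaller falls than miR-200b-3p itself. With a mean of 10.9 CPM, against 45.0 CPM for miR-200c-3p, miR-200b-3p lay under the 20 CPM limit set for the others. The part of counting error in its larger distances was not tested. With only 4 libraries in 2 groups, any miRNA with a like fold change and even replicates lies near, so these are descriptions.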

How the data were processed

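Small RNA was counted in 4 HEK293T libraries, grouped and numbered by their titles; the labels give no batch or date. Per the labels' protocols, Trizol was used to isolate total RNA, and the NEBNext Small RNA kit to build the libraries. The authors deposited whole-number counts per mature miRNA and per seed family, with 1 column per library. Details not given in the sources used here include the trimming, aligner, annotation, build and rule for shared reads. The even 2 to 1 split of identical miRNAs means that some counts may be rounded fractions.

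Tests ran in R 4.3.3 with edgeR 4.0.16 (robust quasi-likelihood, TMM factors of 0.935 to 1.08, default filter with a minimum count of 10 and total of 15) on each whole table, with group alone as the term. Two-sided p-values were adjusted (Benjamini-Hochberg) across every feature tested, with a threshold of 0.05. The common biological coefficient of variation was 0.180. Cluster sums replaced the 9 member rows in a further fit. Fold changes are CAG over PGK, and each SE was derived from the log2 fold change and the F statistic. The test was checked on simulated data. Chi-square statistics of 66.1 (PGK) and 125 (CAG) per degree of freedom showed that replicates were not copies of the same reads. Figures used Python 3.11.15 with matplotlib 3.10.9. Alternatives were other scalings and filters, DESeq2 1.42.0, limma-voom (limma 3.58.1), the older edgeR method, a replicate block, each library left out, the 5 most abundant features removed and a threshold of 0.01. Members, lists and tests were chosen with earlier results of these data known. Besides the 9 members, the text names the 2 most abundant tested and every called miRNA of each list, every called neighbour within 10 Mb and the 3 nearest patterns of each cluster's leading member. Any other name was chosen after its values were seen. Positions came from RefSeq and GENCODE, matched by name for 2367 of 2656 miRNAs.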

Additional observations from a re-analysis of the deposited data

How the results depend on the processing

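Leaving out a PGK library ended the calls. Without PGK replicate 1 and without PGK replicate 2 the members called higher and lower went from 1 each to 0 each (2 and 3 members at an unadjusted p under 0.05 in these edgeR fits), and over all miRNAs the calls went from 63 higher and 47 lower to 12 and 7, then 10 and 6. Without CAG replicate 1 or CAG replicate 2 both counts were 1. The lone library was assumed to vary like the other group. Over the 4 fits without a library the log2 fold change ran from −1.74 to −1.55 for the chromosome 1 cluster and from 0.88 to 1.15 for the chromosome 12 cluster. In the other alternatives of scaling, filter, test and threshold both clusters, miR-200b-3p and miR-200c-3p kept their calls and directions. With the replicate number as a block the log2 fold changes were −1.66 (edgeR adjusted p = 0.00183) and 1.02 (0.00987), and 40 miRNAs were called higher and 23 lower. The labels do not say what the numbers share, and the deviations of same-numbered libraries had a correlation of −0.0088. The difference in log2 ratio between the clusters ran from 2.47 to 2.89 over its 7 alternatives, and paired by number it was 2.63. Neither seed family was called in any alternative that tested it, nor was miR-200a-3p. The family AACACUG and miR-200a-3p did not pass the filter of 10 CPM and have no value there. DESeq2 gave miR-200a-3p a log2 fold change of −1.90 but no adjusted p-value. Depth limits the 6 members outside the test, where 3 reads stand for 0.233 to 0.972 CPM.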
